A study of Macaca mulatta with 30 samples.

Results

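Lysosomal enzymes, their activators and the membrane proteins of the lysosome were described in cortical area 32 of rhesus macaques that had drunk ethanol. The members are genes of a list of 40 symbols that encode soluble lysosomal hydrolases, carriers, membrane proteins and the transcription factor TFEB. The rule takes symbols and uses no expression value, but the list was drawn up with earlier results of these data known. The deposited gene table of 15521 genes holds 33 of the 40 symbols, and all 33 were measured well enough to be tested. The other 7 symbols (GLB1, ARSA, MANBA, MAN2B1, CTSF, CTSL and CTSZ) were not analysed here. CTSL1, the older symbol of CTSL, is in the table and was left out of the counts.

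Total RNA of area 32, a part of the medial prefrontal cortex, was sequenced from 30 male macaques after depletion of ribosomal RNA, with 1 library per animal. Every animal, the low drinkers included, was first induced to drink 4% ethanol and then had open access to it for over 12 months, so no group is free of ethanol. Very heavy drinkers (VHD, n = 6) took on average more than 3 g/kg a day, with more than 4 g/kg on at least 10% of days. Heavy drinkers (HD, n = 7) took at least 3 g/kg on at least 20% of days. Binge drinkers (BD, n = 7) took at least 2 g/kg on at least 55% of days and reached 80 mg/dl of blood ethanol at least once a year. Low drinkers (LD, n = 10) met none of these definitions. The animals were adults of cohort 4 (n = 9, mean age 9.98 years after drinking), cohort 5 (n = 8, 7.15 years), cohort 7a (n = 8, 5.70 years) and cohort 7b (n = 5, 7.18 years). Categories and cohorts are not balanced. VHD animals come from cohort 5 (4 animals) and cohort 7a (2 animals), LD animals from cohort 4 (4 animals), cohort 7a (3 animals) and cohort 7b (3 animals), so both groups meet only in cohort 7a.

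The lysosome is an acidic compartment in which proteins, glycans, glycosaminoglycans and lipids are broken down to their building blocks. Its hydrolases are made in the secretory pathway, sorted to the lysosome mostly by mannose 6-phosphate receptors, and often need a protector or activator protein. TFEB is a transcription factor that binds the promoters of many lysosomal genes and enters the nucleus when nutrient signalling at the lysosome is low. Inherited loss of most of the enzymes described here causes a lysosomal storage disease, many of which damage neurons.

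Depth in the measured exons was 4.39 to 13.99 M (M, 10 to the power of 6) reads per library, with category means between 8.23 ± 3.94 (BD; SD, n = 7) and 10.2 ± 2.64 (VHD, n = 6). The values are normalized reads, which the authors scaled so that libraries share an upper quartile. Neuron markers averaged 11.47 to 11.83 on the log2 scale in all 30 libraries, with no marker at 0. Microglia markers averaged 6.05 to 6.58. The tissue is bulk cortex, so fewer cells of a type and less RNA per cell cannot be told apart. In every comparison of categories or cohorts given below, 0 of 33 members and 0 of 12935 tested genes passed an adjusted p of 0.05 (limma with Benjamini-Hochberg adjustment), and edgeR on recovered reads also called 0 members in each. The differences that follow are therefore estimates with their standard errors. Members at an unadjusted p under 0.05 are counted beside the share of all tested genes that met the same threshold.

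Per kilobase of exon, the 33 members spanned a wide range of levels. PSAP, the precursor of the saposins that present sphingolipids to their hydrolases, had the highest level, at 4519 ± 358 normalized reads per kb (mean ± SD, n = 30 animals). IDS, the sulfatase that starts the breakdown of heparan and dermatan sulfate, followed at 3535 ± 250. CTSB, a cysteine protease, stood at 2807 ± 297 and the aspartic protease CTSD at 1065 ± 174. These 4 genes exceeded 97.0% or more of all tested genes in level. The median member stood at 138 normalized reads per kb, against 103 for all tested genes.

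Next in level came the thioesterase PPT1, which strips palmitate from proteins (608 ± 56.4 per kb), SCARB2, the membrane receptor that carries glucocerebrosidase to the lysosome (598 ± 59.3), and ASAH1, acid ceramidase (480 ± 53.8). PPT1 and SCARB2 lie within their spread of each other. The abundant membrane glycoproteins LAMP1 and LAMP2 stood at 341 ± 32.2 and 238 ± 26.4, with the tripeptidyl peptidase TPP1 between them at 283 ± 37.1. A middle group lay between 121 and 204 per kb, where neighbours in the order lay within the larger of their SDs. It held HEXA, a subunit of hexosaminidase, the fucosidase FUCA1, CTSA, which protects NEU1 and galactosidase, progranulin (GRN), CLN3, a membrane protein lost in juvenile Batten disease, the sialidase NEU1, the glycogen-degrading GAA, the sphingomyelinase SMPD1 and the cholesterol carrier NPC2.

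The lower members ran from NPC1, which moves cholesterol out of the lysosome (92.5 ± 12.4 per kb), and the galactosylceramidase GALC (88.4 ± 11.9) down to NAGLU (32.8 ± 7.14) and TFEB (24.8 ± 6.77). Between them lay IDUA, LIPA, GALNS, the calcium channel MCOLN1, GM2A, AGA, GUSB, GLA, SGSH and ARSB, from 75.7 down to 45.7 per kb. AGA, which cuts the bond between an N-glycan and its asparagine and is grouped here with the glycosidases, had 60.7 ± 14.9, rank 27 of 33. LIPA, the acid lipase that frees cholesterol and fatty acids from lipoproteins, had 74.7 ± 13.7, rank 23. CTSL1 had 358 ± 48.6 per kb.

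**Figure D1:**
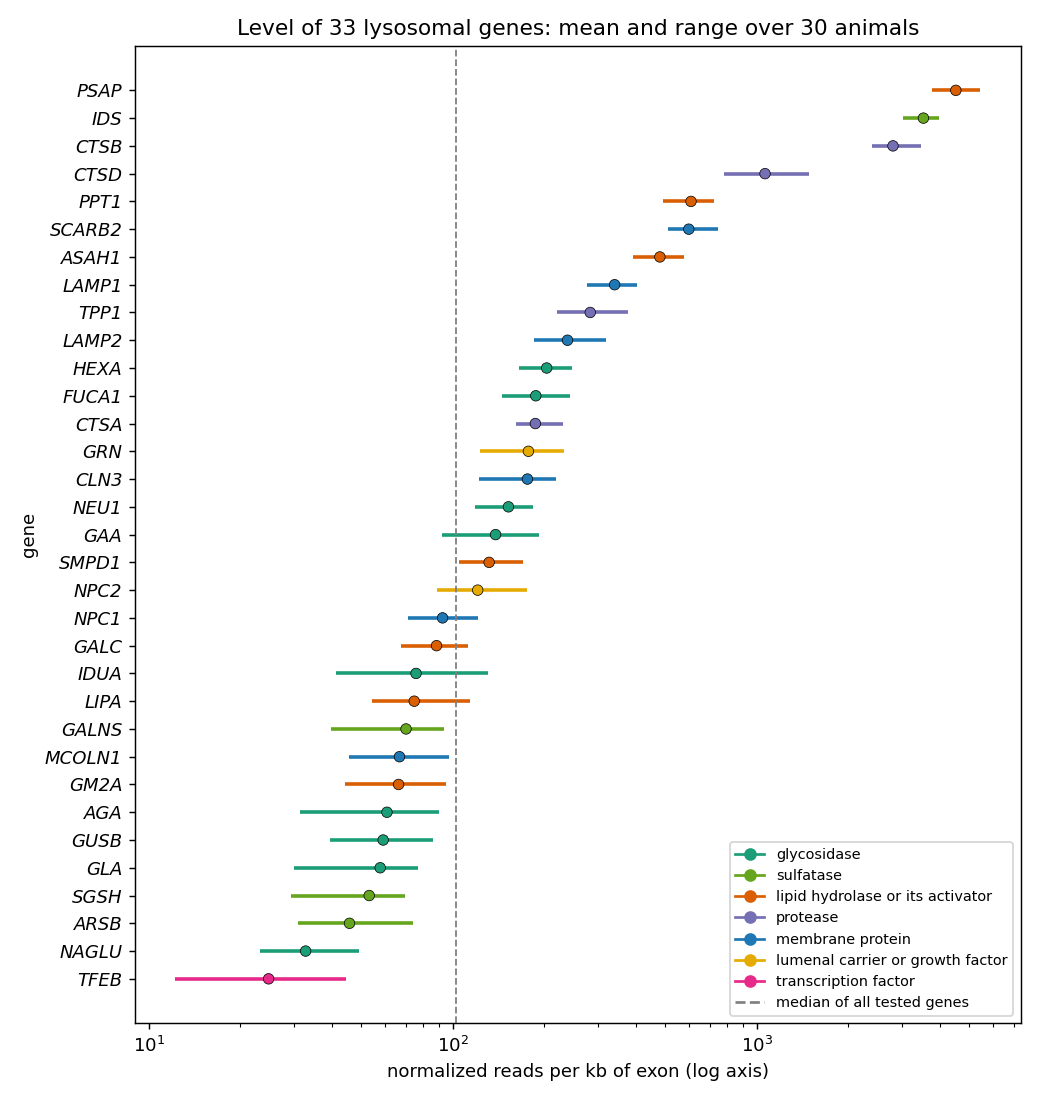
Mean level of each of the 33 genes in normalized reads per kb of exon (log axis), with a line from the lowest to the highest of 30 animals, coloured by role. The dashed line is the median of all tested genes at 103; PSAP, IDS, CTSB and CTSD lie farthest above it and TFEB farthest below.

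IDS and PSAP had the smallest SDs between animals on the log2 scale. IDS differed 1.31-fold and PSAP 1.44-fold between the lowest and the highest animal, with SDs of 0.10 and 0.11 on the log2 scale. IDUA, the iduronidase that acts after IDS, differed 3.17-fold (SD 0.46 on the log2 scale), TFEB 3.64-fold (SD 0.37) and AGA 2.87-fold (SD 0.36). The median SD was 0.22 for the members and 0.22 for all tested genes.

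Very heavy drinkers were set against low drinkers to compare the extremes of intake. AGA stood highest above LD among the members and LIPA followed, while TFEB, MCOLN1 and GRN lay farthest below. An unadjusted p under 0.05 was found for 3 of 33 members, AGA and LIPA above LD and GRN below, and for 3.50% of all tested genes (1.76% above and 1.74% below). Of the 33 members, 12 had an estimate above 0 and 21 below, with a median of -0.07 log2 units against 0.00 for all tested genes. This split rests on few libraries: without VHD replicate 5 the median was -0.0054 with 16 above and 17 below, and with a term for the 4 sets into which the library numbers of the titles were cut (8 numbers in a row each) it was -0.0096 with the same split. The lowest adjusted p of a member was 0.948 (limma).

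By role, 6 of 7 lipid hydrolases and activators lay above 0, with LIPA highest and PSAP the one below. All 4 proteases lay below 0, from -0.10 for CTSA to -0.19 for TPP1. Of the 9 glycosidases, AGA alone lay above 0 and the other 8 ran from -0.03 for HEXA to -0.20 for GLA, the alpha-galactosidase. Of the 4 sulfatases only IDS lay above 0, at 0.04, and GALNS was lowest at -0.27. The membrane proteins split into 4 above (SCARB2, LAMP1, LAMP2 and CLN3, from 0.05 to 0.08) and 2 below (NPC1 and MCOLN1, the latter at -0.35 ± 0.18). None of these role groups was tested as a group.

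Markers of other cell types also lay to one side in VHD. All 13 mural and fibroblast markers lay below 0, with a median of -0.28, and 9 of 10 oligodendrocyte markers above 0, with a median of 0.27; no marker of either list had an unadjusted p under 0.05. Their mean log2 levels overlapped, the mural and fibroblast list at 7.51 to 8.25 in VHD and 7.59 to 8.41 in LD, and the oligodendrocyte list at 7.94 to 9.42 and 7.87 to 9.33, with none at 0. The part of mural cells and fibroblasts in the VHD values was not tested. With the marker sums of microglia, astrocytes, oligodendrocytes and neurons as terms, AGA stood at 0.77 in VHD, LIPA at 0.36, GRN at -0.26 and TFEB at -0.46, and the median member at -0.06.

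AGA (exon names place it at 177702998 to 177715034 on chromosome 4) had 64.1, 105 and 142 normalized reads in LD as lowest, median and highest animal. It had 107, 139 and 180 in VHD. All 6 VHD animals lay above the LD median and 3 of 6 above the highest LD animal, and the groups overlapped. The limma difference was 0.76 ± 0.18 log2 units (± SE; adjusted p = 0.948), and it was 0.44 without the cohort term. In cohort 7a, the one cohort with both groups, the 3 LD animals had 64.1, 86.1 and 95.3 and the 2 VHD animals 107 and 180, which do not overlap. LIPA (144 to 184 in LD, 196 and 226 in VHD) did not overlap there either. Nor did MCOLN1, GUSB, CTSB, NEU1 and GALNS, with VHD below LD. TFEB, GRN, CLN3, NAGLU, LAMP1, SGSH and GAA overlapped there, and not every member was compared in this way. With 3 against 2 animals no weight is put on a separation, and the share of all tested genes that show one was not counted. A fit of AGA within cohort 7a gave 0.77. All 9 exons of AGA had a VHD estimate above LD, from 0.14 to 1.08, and 4 of 9 had an unadjusted p under 0.05. Exons of a gene are measured in the same libraries as the gene. Here and below they show how its difference is spread and are not separate observations of it.

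LIPA (chromosome 10, 84285711 to 84325127) had 144, 182 and 230 normalized reads in LD and 196, 228 and 236 in VHD. All 6 VHD animals lay above the LD median and 3 above the highest LD animal; 5 of 6 lay between 222 and 236 and the lowest, at 196, stood apart. The difference was 0.45 ± 0.15 (adjusted p = 0.948, limma), and 0.30 without the cohort term. Of its 9 tested exons 8 lay above 0 and 3 had an unadjusted p under 0.05. GALC, another lipid hydrolase, had a difference of 0.24 ± 0.13, short of the threshold.

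GRN (chromosome 17, 52214986 to 52223437) encodes progranulin, a secreted growth factor that is also delivered to the lysosome and cut into granulins there. It had 355, 445 and 535 normalized reads in LD and 282, 389 and 421 in VHD. All 6 VHD animals lay below the LD median and 2 below the lowest LD animal. The difference was -0.31 ± 0.14 (adjusted p = 0.948, limma), or -0.19 with the library sets as a term. All 12 tested exons of GRN lay below 0, from -0.07 to -0.59, 2 of them at an unadjusted p under 0.05.

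TFEB (chromosome 6, 42536478 to 42586872) had 44.7, 57.4 and 80.7 normalized reads in LD and 38.4, 46.7 and 96.7 in VHD. Of the VHD animals, 5 of 6 lay below the LD median, and 1, from cohort 5, had the highest value of all 30 libraries. The difference was -0.39 ± 0.20 (adjusted p = 0.948, limma), -0.22 with the term for library sets and -0.22 without the cohort term. These are low counts: the library with the fewest held 18 reads of TFEB.

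**Figure D2:**
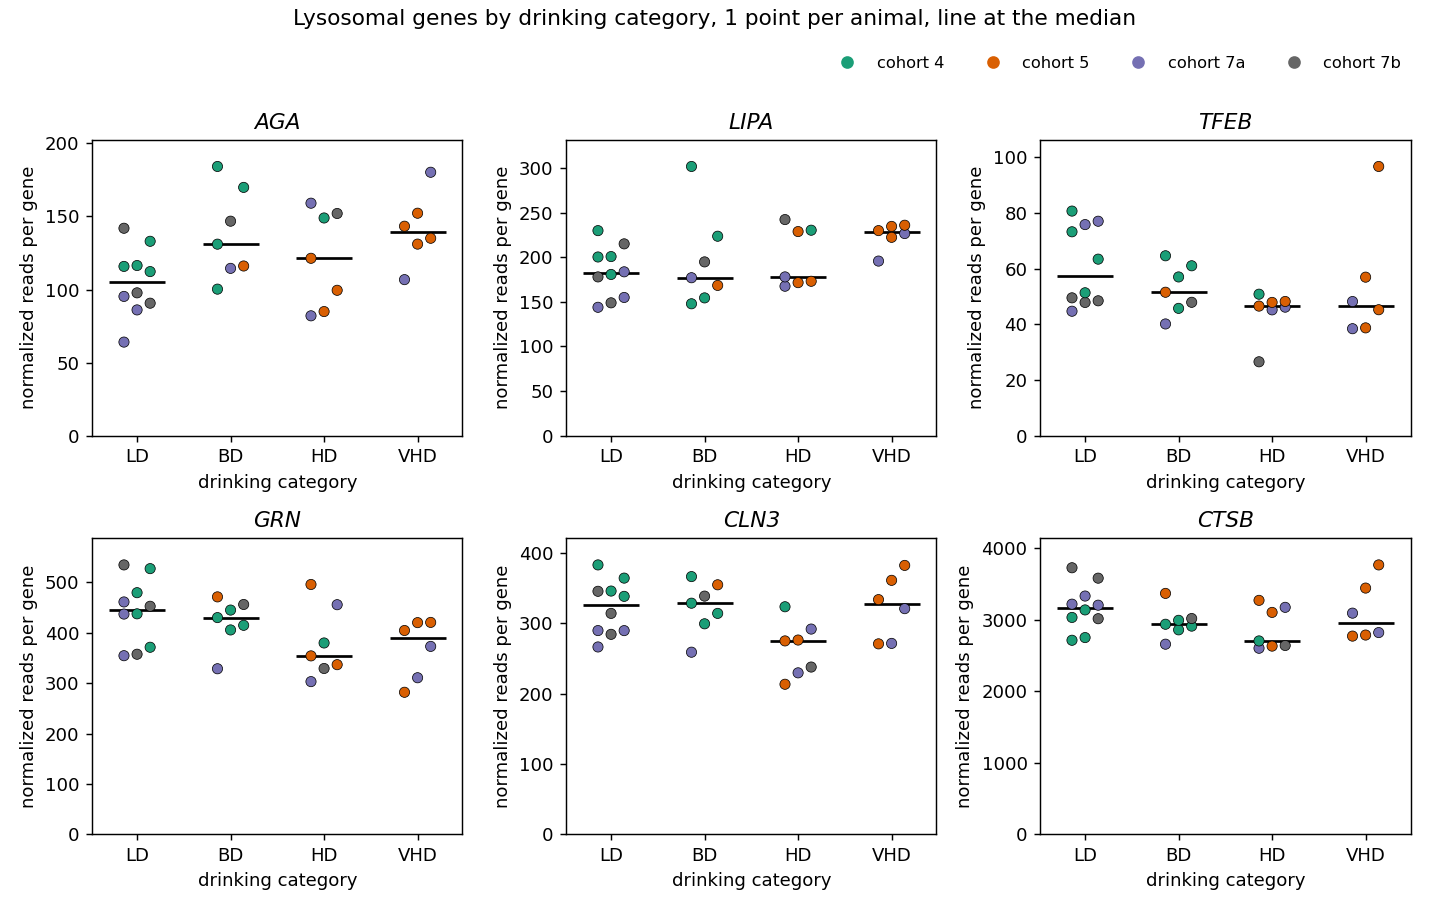
Normalized reads of 6 lysosomal genes in each of 30 animals by drinking category, coloured by cohort, with a line at the median of each category. AGA and LIPA medians are 139 and 228 in VHD against 105 and 182 in LD; TFEB and CLN3 sit low in HD, and all groups overlap.

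Over all exons of the members, 366 were in the exon table and 356 were tested. None passed the adjusted threshold in VHD against LD. There were 18 of 356 (5.06%) at an unadjusted p under 0.05, against 3.51% of 119940 tested exons. Of these 18, AGA held 4 and LIPA 3, which repeat the differences of those genes in the same libraries. LAMP1 had all 9 exons above 0 and CTSB all 9 below, though the largest of these was 0.12 for LAMP1 and -0.23 for CTSB.

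**Figure D3:**
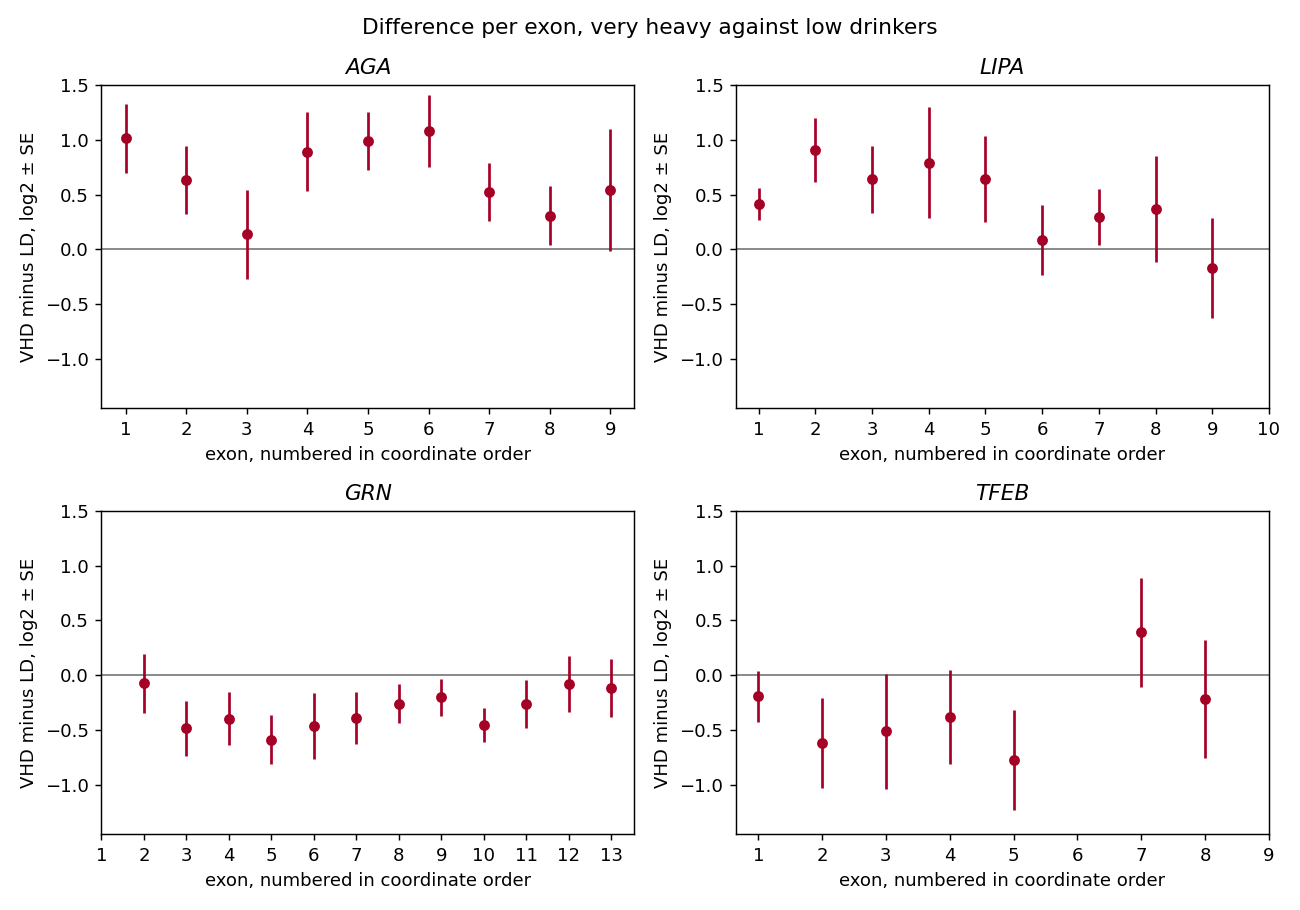
Difference of each tested exon, VHD minus LD on the log2 scale ± SE, for AGA, LIPA, GRN and TFEB, with exons numbered in coordinate order. All 9 AGA exons lie above 0 and all 12 GRN exons below, in the same libraries that gave the gene differences.

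Heavy drinkers were compared with the same LD animals. An unadjusted p under 0.05 was found for 6 of 33 members, AGA above LD and TFEB, CLN3, CTSB, GRN and NAGLU below, and for 12.5% of all tested genes (5.87% above and 6.68% below). The median member stood at -0.07 (-0.11 without HD replicate 6) and 22 of 33 lay below 0. The lowest adjusted p was 0.314, for TFEB (limma). A term for the library sets took the members under the threshold from 6 to 1, the median from -0.07 to 0.00 and all tested genes under it from 1623 to 596. The first of these sets holds 4 of 7 HD animals and 1 of 10 LD animals, and the share of library order in the HD differences was not tested further.

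TFEB had 26.6, 46.6 and 50.8 normalized reads in HD, all 7 below the LD median of 57.4 and 1 below the lowest LD animal. Its difference was -0.54 ± 0.17, or -0.34 with the library sets as a term. CLN3 (chromosome 16, 27626391 to 27641935) had 213, 275 and 323 in HD against 266, 326 and 383 in LD, again with all 7 below the LD median. Its difference was -0.26 ± 0.09 (adjusted p = 0.317, limma), or -0.12 with the library sets. Within cohort 7a the CLN3 values overlapped, at 229 and 292 in the 2 HD animals and 266 to 290 in the 3 LD animals. The 1 HD animal of cohort 4 (323) lay below its LD animals (338 to 383). So did the 1 of cohort 7b (238, against 284 to 345).

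CTSB had 2602, 2705 and 3272 normalized reads in HD against 2714, 3172 and 3729 in LD, a difference of -0.21 ± 0.07. NAGLU, which removes N-acetylglucosamine from heparan sulfate, had 67.1, 70.9 and 89.6 against 64.2, 92.6 and 132, a difference of -0.32 ± 0.15. GRN differed by -0.26 ± 0.12. With the library sets as a term these 3 stood at -0.09, -0.12 and -0.05, and GRN at -0.16 without the 6 libraries under 6 M reads. All 4 proteases lay below 0 in HD, from -0.15 for CTSD to -0.21 for CTSB. AGA had 82.1, 121 and 159 in HD, with 4 of 7 animals above the LD median, and a difference of 0.38 ± 0.15 (adjusted p = 0.336, limma), 0.19 without the cohort term and 0.58 with the marker sums of 4 cell types as terms. LIPA differed by 0.20 ± 0.12, or by 0.11 without the cohort term and 0.13 with the library sets.

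Of the 13 mural and fibroblast markers, 7 had an unadjusted p under 0.05 below LD in the HD comparison, with 11 of 13 below 0 and a median of -0.55; their mean log2 level ran from 7.05 to 8.72 in HD and from 7.59 to 8.41 in LD, with none at 0. All 10 oligodendrocyte markers lay below 0 there, with a median of -0.21. The part of mural cells and fibroblasts in the HD values was not tested. With the marker sums of microglia, astrocytes, oligodendrocytes and neurons as terms, TFEB stood at -0.45, CLN3 at -0.23, CTSB at -0.19, NAGLU at -0.19 and GRN at -0.16.

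Binge drinkers were compared with the same LD animals. AGA and LAMP1 were the 2 of 33 members at an unadjusted p under 0.05, both above LD, where 3.05% of all tested genes met that threshold (1.56% above and 1.48% below). AGA had 100.3, 131 and 184 normalized reads in BD, with 6 of 7 animals above the LD median, and a difference of 0.38 ± 0.14 (adjusted p = 0.999, limma). LAMP1 had 746, 829 and 957 against 655, 749 and 898 in LD, 6 of 7 animals above the LD median, and a difference of 0.14 ± 0.07. LIPA differed by 0.04 ± 0.11, or by -0.03 within cohort 4, and TFEB by -0.31 ± 0.16, which was -0.11 with the library sets and -0.20 without the cohort term. The median member stood at -0.03, or between -0.06 with the 4 marker sums as terms and 0.01 within cohort 4. The 3 comparisons share the LD animals, so the values of AGA (0.38 in BD, 0.38 in HD and 0.76 in VHD) and of TFEB (-0.31, -0.54 and -0.39) are given side by side without a test between them.

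An F test over the 4 categories put 4 of 33 members (AGA, CLN3, LIPA and TFEB) at an unadjusted p under 0.05, where 5.62% of all tested genes were. A slope across the categories, taken as equal steps from LD through BD and HD to VHD, gave 5 of 33, where 6.18% of all tested genes met the threshold (3.12% above and 3.06% below). AGA stood at 0.24 ± 0.06 log2 units per step and LIPA at 0.14 ± 0.05, while TFEB stood at -0.16 ± 0.07, GRN at -0.11 ± 0.04 and MCOLN1 at -0.11 ± 0.06 (adjusted p = 0.745 for each, limma). Without the cohort term AGA stood at 0.12 and LIPA at 0.09 per step. With the library sets GRN stood at -0.06, MCOLN1 at -0.05 and TFEB at -0.09. MCOLN1, the channel that releases calcium from the lysosome, had a median of 154 normalized reads in LD, of 140 in BD and of 133 and 120 in HD and VHD, with ranges that overlap. Its slope over categories was not found to differ by cohort (unadjusted p = 0.198, limma F test), and the values within a cohort are few. In cohort 5, which holds no LD animal, MCOLN1 had 140 in the 1 BD animal. Its means there were 137 in HD (n = 3) and 139 in VHD (n = 4). In cohort 7a it had 157 to 168 in LD (n = 3) and 95.1 and 99.9 in the 2 VHD animals. Slopes over categories that differ by cohort were seen for 1 of 33 members, GALC, at an unadjusted p under 0.05, where 2.24% of all tested genes were.

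**Figure D4:**
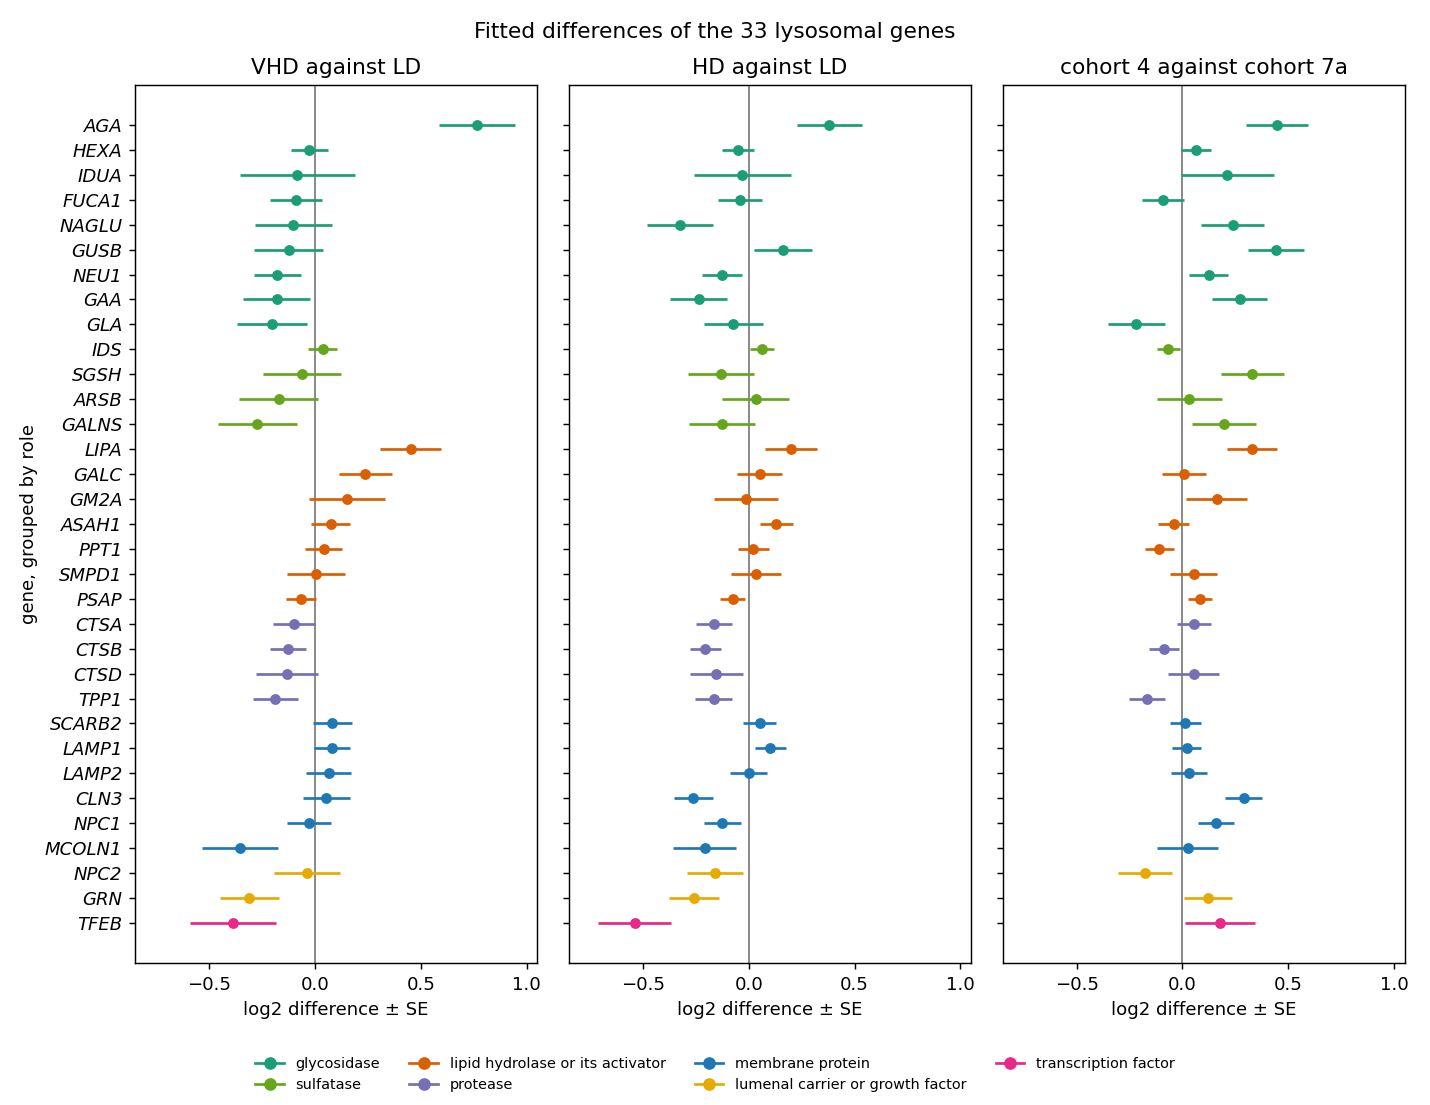
Limma differences ± SE on the log2 scale for the 33 genes, grouped and coloured by role, for VHD and HD against LD and for cohort 4 against cohort 7a. AGA is at 0.76 in VHD, TFEB at -0.54 in HD and GUSB and AGA at 0.44 and 0.45 between the cohorts; none passed the adjusted threshold.

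Cohorts 4 and 7a differ most in age and were compared with drinking category in the model. An unadjusted p under 0.05 was found for 6 of 33 members, all above in cohort 4, and for 9.15% of all tested genes (4.94% above and 4.21% below). The median member stood at 0.05 (0.10 without HD replicate 6), against a median of 0.01 for all tested genes. Above 0 lay 25 of 33 members and 6703 of 12935 tested genes. Without the 6 libraries under 6 M reads, 18 of 33 members lay above 0 and 15 below, with a median of 0.06. All 6 membrane proteins lay above 0, and 7 of 9 glycosidases did. The lowest adjusted p was 0.237, for GUSB (limma).

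GUSB (chromosome 7, 49981132 to 50003758), the glucuronidase of glycosaminoglycan breakdown, had 121, 176 and 205 normalized reads in cohort 4 and 104, 119 and 158 in cohort 7a. Of the cohort 4 animals, 7 of 9 lay above the highest cohort 7a animal. The difference was 0.44 ± 0.13, or 0.30 without the 6 libraries under 6 M reads. GUSB, like IDS, has related copies in primate genomes, and how reads shared with them were assigned is not given in the sources used here, so both levels are uncertain.

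CLN3 had 299, 338 and 383 normalized reads in cohort 4 and 229, 280 and 321 in cohort 7a. Again 7 of 9 cohort 4 animals exceeded every cohort 7a animal, and the difference was 0.29 ± 0.09 (adjusted p = 0.242, limma). AGA had 100.3, 131 and 184 against 64.1, 101 and 180, with 8 of 9 cohort 4 animals above the cohort 7a median, and a difference of 0.45 ± 0.15 (adjusted p = 0.293). LIPA had 148, 201 and 302 against 144, 177 and 226, a difference of 0.33 ± 0.12, or 0.20 without the category term. SGSH, the sulfamidase of heparan sulfate breakdown, had 119, 151 and 161 against 88.0, 107 and 158, all 9 cohort 4 animals above the cohort 7a median, and a difference of 0.33 ± 0.15. GAA was the last of the 6, with 471, 542 and 670 against 322, 457 and 618.

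Oligodendrocyte markers also differed between these cohorts. All 10 of them lay above 0 in cohort 4 against cohort 7a, 9 of 10 with an unadjusted p under 0.05, and their median was 0.77. Their mean log2 level ran from 7.87 to 10.11 in cohort 4 and from 7.76 to 8.60 in cohort 7a, with no marker at 0. With the marker sums of 4 cell types as terms LIPA stood at 0.13 and AGA at 0.33, while GUSB stood at 0.54, CLN3 at 0.30 and SGSH at 0.38. The members above 0 then numbered 19 of 33, and their median was 0.07.

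**Figure D5:**
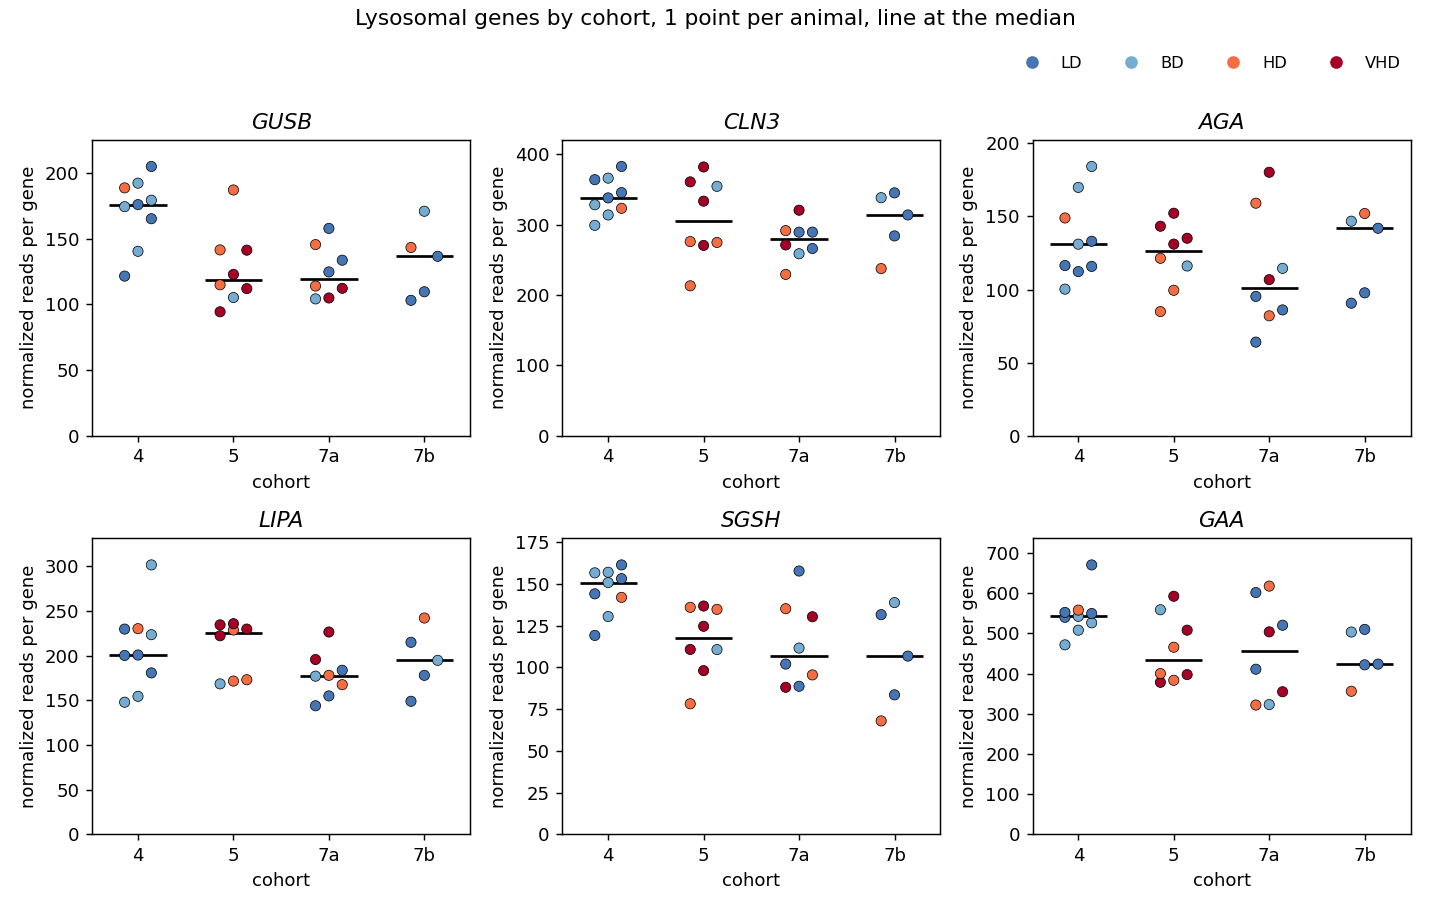
Normalized reads of the 6 genes in each animal by cohort, coloured by drinking category, with a line at the median of each cohort. For GUSB and CLN3, 7 of 9 animals of cohort 4 lie above the highest animal of cohort 7a.

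An F test over all 4 cohorts put 8 of 33 members at an unadjusted p under 0.05, where 8.04% of all tested genes were. They were NPC1, GUSB, AGA, CLN3, ASAH1, PSAP, SGSH and TFEB, and the lowest adjusted p was 0.369, for NPC1 (limma). NPC1 had a mean of 476 ± 51.8 normalized reads (SD, n = 9) in cohort 4, 426 ± 53.6 (n = 8) in cohort 5, 424 ± 43.8 (n = 8) in cohort 7a and 369 ± 30.8 (n = 5) in cohort 7b. ASAH1 had the reverse order at its ends, with 1262 ± 87.1 in cohort 7b and 1074 ± 135 in cohort 4. NPC1 and ASAH1 were named after their values were seen.

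The cellular makeup of the pieces of cortex was followed with sums of marker genes, entered together with category and cohort. For the neuron sum, 5 of 33 members passed an adjusted p of 0.05 with a slope above 0, where 4.47% of all tested genes did, and 1 of 33 with a slope below 0, where 3.88% did. Those above were CTSD (0.16 ± 0.04 log2 units per SD of the sum, adjusted p = 0.00801, limma), IDUA (0.25 ± 0.07), SMPD1 (0.13 ± 0.04), CTSA (0.09 ± 0.03) and TPP1 (0.11 ± 0.03), and the one below was SCARB2 (-0.08 ± 0.02). No member passed for the sums of microglia, astrocytes or oligodendrocytes, where 0.503% of all tested genes passed above and 0.0851% below for oligodendrocytes, 0.00774% below for microglia and 0 for astrocytes. Sum and member come from the same libraries, and the 5 genes include 3 of the 4 proteases.

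TFEB regulates many lysosomal genes, so the other 32 members were set against its level with category and cohort in the model. None passed the adjusted threshold. GAA, NAGLU, GM2A and CTSB (4 of 32) had a slope above 0 at an unadjusted p under 0.05, where 4.69% of all tested genes did, and 22 of 32 lay above 0. GAA had 0.16 ± 0.05 and NAGLU 0.18 ± 0.06 log2 units per SD of TFEB. Against AGA, 3 of 32 members (NPC2, CLN3 and GRN) met that threshold above 0, where 3.25% of all tested genes did, and LIPA did not. On AGA, 25 of 32 members lay above 0, so such a count was not particular to TFEB. The median member slope was 0.027 on TFEB and 0.029 on AGA, where all tested genes had -0.0020 and 0.0050.

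The rest of the lysosomal system was followed in 6 further lists, of which 0 genes passed the adjusted threshold in any comparison. Among 26 other hydrolases 11 lay above 0 in VHD and 2 had an unadjusted p under 0.05 (3.50% of all tested genes did), DNASE2, the acid DNase, at -0.43 ± 0.18 and the carboxypeptidase PRCP at 0.38 ± 0.17. Among 18 other membrane proteins 1 did, CD68, a glycoprotein of macrophages and microglia, at -0.54 ± 0.23, while TMEM192 stood at 0.15 ± 0.09. The microglial transcription factor gene SPI1 lay below LD as well, at -0.67 ± 0.28, whereas the 13 microglia markers had a median of -0.05 with 6 above 0. Among 25 sorting genes 1 met the threshold, VPS26A of the retromer, at 0.26 ± 0.09, and AP1B1 stood at -0.17 ± 0.10.

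The vacuolar proton pump, which acidifies the lysosome and, in neurons, synaptic vesicles, had 12 of 17 subunits above 0 in VHD and none at an unadjusted p under 0.05, with ATP6V1E1 at 0.12 ± 0.09 and ATP6V0D1 at -0.12 ± 0.10. In HD, 14 of 17 lay above 0 and 5 met the threshold, all above LD, where 5.87% of all tested genes met it in that direction. The sorting genes had 5 of 25 above and 4 of 25 below at that threshold in HD, the regulators 3 of 18 above and 1 below, the other hydrolases 1 of 26 above and 2 below, the other membrane proteins 0 of 18 above and 3 below, and the autophagy genes 1 of 19 in each direction, where 6.68% of all tested genes met it below. The median subunit stood at 0.11 in HD, against -0.07 for the 33 members. With the library sets as a term the median of the members was -0.0023. The pump and the other lists are not given with that term, and the share of library order in their HD values was not tested. Of the 18 regulators of the lysosome and 19 autophagy genes none met the threshold in VHD, with FNIP1 at 0.14 ± 0.08, LAMTOR3 at 0.15 ± 0.11, ATG5 at 0.18 ± 0.10 and STX17 at 0.13 ± 0.07.

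Between cohorts 4 and 7a the 6 further lists had medians from -0.03 to -0.01, where the 33 members stood at 0.05. The smallest p in each belonged to GGH at -0.23 ± 0.10 and ARSG at -0.29 ± 0.16 among the hydrolases, SLC36A1, an amino acid carrier, at -0.29 ± 0.08 and TMEM175 at 0.25 ± 0.16 among the membrane proteins, ATP6V0E1 at -0.29 ± 0.15 and ATP6AP1 at 0.09 ± 0.07 in the pump, and VPS39 at 0.10 ± 0.05 and GGA1 at 0.19 ± 0.11 in sorting. Among regulators they belonged to PPP3CB at -0.16 ± 0.07 and FNIP2 at -0.11 ± 0.06, and in autophagy to MAP1LC3B at -0.21 ± 0.10 and BECN1 at -0.12 ± 0.06. A difference between the lists was not tested.

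In a RefSeq table of another assembly, 15 of the 32 members matched overlap another annotated gene. NAGLU overlaps the pump subunit gene ATP6V0A1, CLN3 overlaps APOBR, IL27 and NUPR1, SGSH overlaps CARD14, LAMP1 overlaps GRTP1 and NPC1 overlaps RMC1. The library kit keeps strand, but whether counting used it is not given in the sources used here, so values of these genes can hold reads of their neighbours. AGA, LIPA, GRN, CTSB and TFEB overlap none in that table.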

How the data were processed

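RNA of 30 animals was sequenced by the authors, whose deposited tables give a normalized signal per gene and per exon, scaled to a common upper quartile. The submitters' processing notes name CASAVA, FastQC, STAR 2.3.0e and edgeR. The build is not given in the sources used here, nor is the annotation; coordinates are copied from the exon names, whose base is unknown. Dividing a library by its smallest step gave whole reads for 100% of values, within 0.01. Genes reaching 10 normalized reads in 6 or more libraries, and exons reaching 5, were tested as log2(value + 1) with limma 3.58.1 in R 4.3.3 (trend), with category and cohort as terms and Benjamini-Hochberg adjustment over all genes. Levels per kb use summed exon lengths. edgeR 4.0.16 (quasi-likelihood, TMM) was run on the whole reads as an alternative. Scripts were tested on simulated data. Figures used matplotlib 3.10.9 in Python 3.11.15.

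Members and lists were chosen with earlier results of these data known. Differences are printed for members at an unadjusted p under 0.05 (at most the 5 smallest per direction and comparison), for AGA, LIPA and TFEB always, for the 2 genes of smallest p in each further lysosomal list, and for up to 3 of each marker list. Alternatives were pseudocounts of 0.25 and 4, other filters, scaling, terms, single cohorts and each library left out. Slopes on marker sums, TFEB and AGA, and leaving out 6 shallow libraries, were chosen after seeing the data. Neighbouring genes came from RefSeq (assembly T2T-MMU8v2.0).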

Additional observations from a re-analysis of the deposited data

Results flagged for a closer look

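In 44 groups of 4 to 10 animals of the named genes, 4 had a lowest library far from the others by Dixon's criterion, where chance marks about 1 in 20 groups. LIPA had 196 normalized reads in VHD replicate 5, the nearest being 222. GRN had 329 in BD replicate 1, the nearest being 406. TFEB had 26.6 in HD replicate 3, the nearest being 45.2, and without that library its HD difference was -0.43 against -0.54 with it. MCOLN1 had 98.8 in HD replicate 4, the nearest being 131.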

How the results depend on the processing

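Under every alternative run, 0 members passed the adjusted threshold in any of the 8 comparisons, and 0 member exons did with a minimum of 20 normalized reads or a pseudocount of 4. Directions were followed for AGA, LIPA and TFEB in each category comparison and for the other members in the comparisons where they had an unadjusted p under 0.05 (GAA left out); other printed differences were not followed. Those directions held under the alternatives run, except that of LIPA in BD, 0.04 as reported, which was -0.029 within cohort 4, and -0.055 to 0.109 with 1 library left out (lowest without BD replicate 7, highest without BD replicate 2). Members at an unadjusted p under 0.05 ranged over the alternatives from 2 to 5 in VHD (3 as reported; 5 without LD replicate 1 or 9, VHD replicate 3 or 4, or BD replicate 4), 1 to 8 in HD (6; 3 without HD replicate 3), 1 to 4 in BD (2; 4 without BD replicate 4 and 1 without many other single libraries), 2 to 6 for any category (4; 2 without HD replicate 3 or LD replicate 8), 2 to 8 for the trend (5; 8 without LD replicate 1 and 3 without LD replicate 8), 5 to 10 for any cohort (8; 5 without LD replicate 1), 4 to 8 between cohorts 4 and 7a (6) and 0 to 4 for slopes by cohort (1). All tested genes under that threshold ranged from 321 to 813 in VHD (453; 813 without VHD replicate 4), 596 to 2141 in HD (1623), 214 to 720 in BD (394; 720 without BD replicate 7 and 713 without LD replicate 3), 405 to 1460 for the trend (799; 500 without LD replicate 8, 514 without LD replicate 2 and 517 without BD replicate 6), 376 to 1171 for any category (727; 1096 without BD replicate 1) and 168 to 611 for slopes by cohort (290), so the shares used beside the members move as well. Between cohorts 4 and 7a, 26 genes, none a member, were called without the category term, 15 with the library sets, 7 without BD replicate 1 and 1 without LD replicate 9; in HD, 1 gene was called without the cohort term. NAGLU and TFEB fall below a mean of 100 normalized reads and were not tested under that filter. No paired analysis was possible because the labels give no replicate numbers shared between groups. TFEB, with a lowest library of 18 reads, is the member most limited by depth.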
